A study of Mus musculus with 4 samples.

Results

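Krt6a, Krt6b, Krt16 and Krt17 are keratins that the epidermis is known to switch on after wounding. They were described here as a fixed list of 4 genes among the 32285 genes of the matrices, in single cells of mouse back-skin epidermis. All 4 were found by symbol in each of the 4 matrices. The study profiled adult epidermis with or without loss of ΔNp63, the main p63 isoform of keratinocytes. Control mice carried DNp63fl/fl alleles alone. Experimental mice carried DNp63fl/fl together with K14-CreT2, a tamoxifen-dependent Cre under the promoter of keratin 14, a gene of the basal layer. Both genotypes received tamoxifen by gavage at 200 mg/kg on each of 5 days, so tamoxifen itself was common to all groups. Epidermis was taken 1 day or 1 week later from males and females of 2 to 17 months. The labels call the cells keratinocytes and other cells. They do not give the number of mice, the ages or the sexes behind a library, nor whether it was digested overnight at 4 °C or for 2 h at 37 °C. Each of the 4 groups was 1 library. No spread between animals could be measured, no test of genotype was possible, and every interval below covers counting error only.

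Keratins build the intermediate filaments of epithelial cells from obligate pairs of a type II and a type I chain. Krt6a and Krt6b encode type II chains, and Krt16 and Krt17 encode type I chains with which they pair. Intact interfollicular epidermis uses Krt5 with Krt14 in the basal layer and Krt1 with Krt10 above it. The wound-induced keratins are normally most evident in the hair follicle and at other stressed sites, and they appear in interfollicular keratinocytes at wound edges and in inflamed skin.

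The 4 genes lie in 2 pairs on the minus strand of GRCm38, the assembly also called mm10. Krt6a (ENSMUSG00000058354) spans chr15:101689910-101694307, and Krt6b (ENSMUSG00000023041) spans chr15:101676023-101680287, with 9622 bases between them. Krt16 (ENSMUSG00000053797) spans chr11:100246091-100248902, and Krt17 (ENSMUSG00000035557) spans chr11:100256217-100261029, with 7314 bases between them. The coding sequences of Krt6a and Krt6b were 97.8% identical, with 37 differences over 1659 aligned bases, whereas those of Krt16 and Krt17 were 78.2% identical. The 60 coding bases in which Krt6a and Krt6b differ most are shown, and they hold 10 of the 37 differences. Both are exonic, run 5′ to 3′ over coding positions 817 to 876 counted from the start codon, come from GENCODE M21 transcripts, and carry their 10 differing bases in capitals.
Krt6a: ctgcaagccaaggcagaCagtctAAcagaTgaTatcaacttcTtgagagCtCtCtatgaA
Krt6b: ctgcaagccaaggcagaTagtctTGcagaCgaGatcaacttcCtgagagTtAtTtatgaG

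How well the copies can be told apart depends on which end of the transcript is read. The 1-day libraries used a 3′ kit (version 3.1) and the 1-week libraries a 5′ kit (version 1.1). Of the 90-base windows in the last 500 bases of Krt6a, 0 were shared with another gene, and 0 were shared in the last 500 bases of Krt6b. In the first 500 bases, 62.5% of the Krt6a windows and 46.5% of the Krt6b windows were shared, mostly with each other or with Gm5478 and, for Krt6a, Krt5, and their longest common run was 280 bases. The read length is not given in the sources used here. At 1 week the division of reads between Krt6a and Krt6b is therefore uncertain, and both are also given together. Krt16 shared 16.1% of its windows in the first 500 bases with Krt14 and 4.38% of those in the last 500 bases with Gm11597, so some of its reads may also be uncertain. Krt17 shared 0 windows with another gene. Because the kits differ, values of the 2 time points are not compared.

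The libraries held 18413 to 33552 barcodes and 68191870 to 179736563 gene UMIs, and 15626 to 23651 cells per library were kept. Control and experimental libraries shared 299 barcodes at 1 day and 661 at 1 week. Pairs of different time points shared 9 to 18, but their kits differ, so these pairs are no baseline. Whether the sharing exceeds that expected by chance was not tested. Levels are UMIs summed over a class of cells in 1 library and divided by the class total (CPM, the usual depth-scaled unit of UMI counts). The targeted gene, Trp63, stood at 404 CPM in control and 126 CPM in experimental keratinocytes at 1 day. At 1 week it stood at 445 CPM in control and 162 CPM in experimental keratinocytes. Both libraries labelled experimental were thus the lower of their pair, although gene counts do not separate ΔNp63 from other isoforms and the position of the tags against the deleted part is not given. At 1 week, 57.6% of control and 73.1% of experimental cells lay in clusters of few UMIs, which were left out of the keratinocyte class. In those cells Krt6a stood at 97.7 CPM in control and 2647 CPM in experimental cells, and Krt17 at 2033 and 7571 CPM.

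Clusters were named only from markers. Basal-like interfollicular cells were led by Igfbp3, Krt5 and Col17a1, with Krt14 among the leading genes at 1 day only. Spinous-like clusters were led by Mt4 and Krt1 or by Krt77 with Gm94 or Krt10, and upper follicle-like clusters by Krt79, Cst6 and Defb6. Bulge-like cells were led by Postn, Cd34 and Ptn, and cycling-like cells by Top2a and Mki67. The make-up of the libraries differed strongly. Basal-like cells were 21.6% of the 1-day control cells and 2.35% of the 1-day experimental cells, and at 1 week 10.5% and 0.109%. A cluster led by Krt8, a keratin of simple epithelia, held 4 control and 4414 experimental cells at 1 day, and 1 and 442 cells at 1 week. It was kept apart from the keratinocyte class. Clusters with markers of more than 1 lineage were also kept apart, and held 0.574% of control and 9.57% of experimental cells at 1 day, and 7.32% and 3.01% at 1 week. At 1 week the spinous-like class also took in a cluster of 123 control cells led by Vim and Crabp1 ahead of Krt77 and Krt10, whose leading genes go against that name, so the spinous-like clusters of 1 week are given singly below. The keratinocyte class of the 1-week control included a cluster of 99 cells led by Iglv2 and Ighm beside Krt77 and Krt10. A cluster found in 1 library may be that library and not a cell type.

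T cell-like cells, which should lack the 4 keratins, carried many UMIs of them, above all in the experimental libraries. Whether free RNA or doublets brought them there was not tested. At 1 day Krt16 stood at 246 CPM in control and 1662 CPM in experimental T cell-like cells. Krt6a stood there at 145 and 440 CPM, Krt6b at 1.39 and 54.3 CPM, and Krt17 at 935 and 1502 CPM. Other non-keratinocytes of the same libraries held less or more. Krt16 stood at 72.4 CPM in control and 299 CPM in experimental Langerhans cell or macrophage-like cells, but at 139 and 2398 CPM in fibroblast-like cells, above the 2330 CPM of experimental keratinocytes as a whole. Experimental fibroblast-like cells also exceeded T cell-like ones in Krt6a at 621 CPM, Krt6b at 110 CPM and Krt17 at 1832 CPM. At 1 week T cell-like cells held 4.03 and 396 CPM of Krt6a, 0 and 67.4 CPM of Krt6b, 24.2 and 143 CPM of Krt16, and 707 and 531 CPM of Krt17. These values rest on few cells, the 67.4 CPM of Krt6b on 17 UMIs in a single cell. Experimental Langerhans cell or macrophage-like cells held 382 CPM of Krt6a, 13.3 CPM of Krt6b, 281 CPM of Krt16 and 1865 CPM of Krt17 at 1 week. A level at or below the T cell-like level of its own library is given below as background and is not read as expression.

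In keratinocytes as a whole, the sums of the wound-induced keratins were higher in the experimental library at both time points. At 1 day the 4 genes together stood at 2807 CPM in 20394 control cells and 6042 CPM in 15718 experimental cells, a log2 ratio of 1.11. Of the 4 members, 3 were at least 2-fold higher, against 5.14% of the 13262 genes with at least 50 UMIs, and 0 were at least 2-fold lower, against 2.44%. At 1 week the sum stood at 3023 CPM in 6050 control cells and 14661 CPM in 2680 experimental cells, a log2 ratio of 2.28. All 4 members were at least 2-fold higher, against 9.89% of 12848 genes, and 0 were at least 2-fold lower, against 4.96%. The sum was also computed over only those clusters with at least 50 cells in both libraries, a subset chosen after seeing the data, and its log2 ratio was then 0.67 at 1 day and 0.48 at 1 week. Whether the keratinocyte differences reflect cell composition, free RNA or levels within a cell type was not tested beyond the values given here.

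Krt6a, the first of the type II members, stood at 332 CPM (95% exact Poisson interval 329 to 335) in control and 921 CPM (914 to 928) in experimental keratinocytes at 1 day. The log2 ratio was 1.47 (exact conditional binomial interval 1.45 to 1.49). At 1 week it stood at 104 CPM (102 to 107) in control and 2683 CPM (2664 to 2702) in experimental keratinocytes, a log2 ratio of 4.68 (4.64 to 4.72). The experimental library was the higher at both times, and in keratinocytes both libraries lay above their T cell-like level. Over clusters present in both libraries the 1-week log2 ratio was 2.27.

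Krt6b, its close copy, was scarce in control keratinocytes. At 1 day it stood at 13.4 CPM (12.7 to 14.1) in control and 247 CPM (243 to 251) in experimental keratinocytes, a log2 ratio of 4.21 (4.13 to 4.29). Over clusters present in both libraries it was 1.21, but no experimental level among those clusters exceeded the T cell-like 54.3 CPM beyond counting error, so this ratio is not read as expression. At 1 week 12 UMIs of Krt6b were counted in all control keratinocytes and 46949 in experimental ones, 0.245 and 1624 CPM, a log2 ratio of 12.70 (11.89 to 13.65). Clusters present in both libraries held 1 control UMI of Krt6b, so no ratio over them is given. The 12 control UMIs lay within the T cell-like interval, so expression in the 1-week control was not detectable at this depth. Summed, the copies stood at 345 and 1168 CPM at 1 day, a log2 ratio of 1.76, and at 105 and 4307 CPM at 1 week, a log2 ratio of 5.36.

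Krt16, the type I partner of Krt6a, stood at 733 CPM (728 to 738) in control and 2330 CPM (2319 to 2341) in experimental keratinocytes at 1 day, a log2 ratio of 1.67 (1.66 to 1.68). Less the T cell-like level of the same library, 487 CPM remained in control and 668 CPM in experimental keratinocytes, a log2 ratio of 0.46, and over clusters present in both libraries it was 0.16. At 1 week Krt16 stood at 638 CPM (631 to 645) in control and 2688 CPM (2669 to 2707) in experimental keratinocytes, a log2 ratio of 2.07 (2.06 to 2.09). Subtracting the T cell-like level left that log2 ratio at 2.05, and over clusters present in both libraries it was 1.12.

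Krt17, the type I keratin of the follicle's outer layers, was already high in control keratinocytes. At 1 day it stood at 1729 CPM (1721 to 1737) in control and 2544 CPM (2533 to 2556) in experimental keratinocytes. Its log2 ratio of 0.56 (0.55 to 0.57) was under 2-fold, and over clusters present in both libraries it was 0.74. At 1 week it stood at 2280 CPM (2267 to 2293) in control and 7666 CPM (7634 to 7698) in experimental keratinocytes, a log2 ratio of 1.75 (1.74 to 1.76). Over clusters present in both libraries the 1-week log2 ratio was 0.25.

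**Figure D1:**
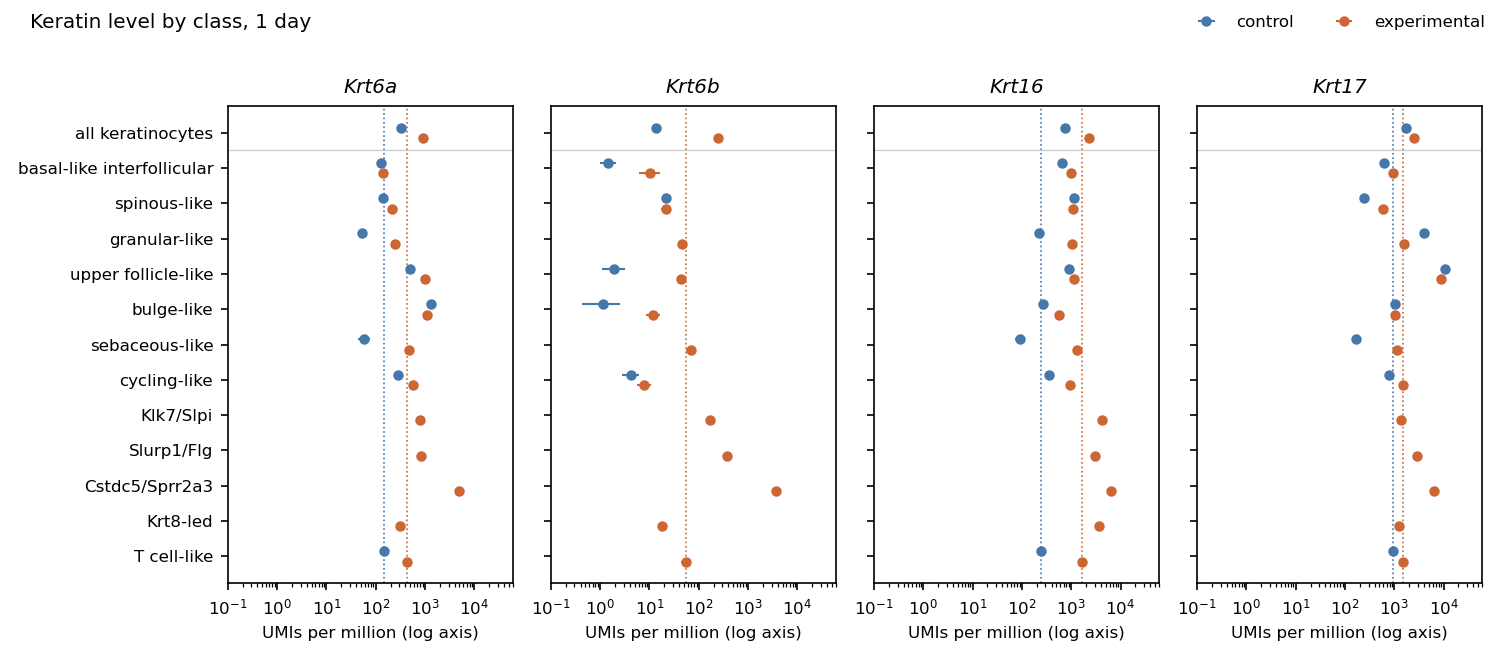
Level of each keratin at 1 day by class of cells (CPM, log axis), control and experimental libraries as points with exact Poisson intervals; dotted lines mark the T cell-like level of each library, and groups under 20 cells or with at most 3 UMIs are left out. Among the control classes drawn Krt6a is highest in the bulge-like class at 1335 CPM and Krt17 in the upper follicle-like class at 10600 CPM, and experimental Krt16 in most follicle and interfollicular classes lies below the T cell-like 1662 CPM.

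The control libraries showed where each keratin is normally found. Among named classes at 1 day, Krt6a was highest in bulge-like cells at 1335 CPM, then in upper follicle-like cells at 495 CPM and cycling-like cells at 281 CPM, and these intervals did not overlap. Spinous-like cells at 139 CPM and basal-like interfollicular cells at 128 CPM did not differ beyond the T cell-like interval of 126 to 166 CPM. Granular-like cells at 54.0 CPM and sebaceous-like cells at 58.8 CPM overlapped each other and lay below it. Among unnamed clusters, those led by Ptn and Fst at 1363 CPM and by Krt15 and Ptn at 1207 CPM were near the bulge-like level. Among named classes Krt17 was highest in upper follicle-like cells at 10600 CPM, followed by granular-like cells at 4081 CPM and bulge-like cells at 1036 CPM. Basal-like and spinous-like cells held 619 and 240 CPM of Krt17, both below the T cell-like level. The unnamed cluster led by Ptn and Fst held 8725 CPM of Krt17 and that led by Fos and Cebpd 3406 CPM.

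Krt16 had another order in the 1-day control. It was highest in spinous-like cells at 1153 CPM, then in upper follicle-like cells at 895 CPM and basal-like cells at 660 CPM. Cycling-like cells held 357 CPM, whereas bulge-like cells at 264 CPM and granular-like cells at 223 CPM overlapped the T cell-like interval of 221 to 273 CPM. Krt6b was highest in spinous-like cells at 22.1 CPM and did not pass 4.27 CPM in any other named keratinocyte class. Of the spinous-like UMIs, 770 came from cells of 1 antibody hashtag at 61.0 CPM, whereas the other hashtags and the untagged cells held 0.574 to 7.72 CPM, so the class level came mostly from 1 tagged group. Among named classes of the 1-week control Krt6a was again highest in bulge-like cells at 698 CPM, and Krt17 in upper follicle-like cells at 17549 CPM. Krt16 was highest there in the spinous-like cluster led by Krt1 and Mt4 at 1301 CPM, followed by basal-like cells at 998 CPM and upper follicle-like cells at 557 CPM, whereas the spinous-like cluster led by Krt77 and Krt10 held 316 CPM. The cluster led by Vim and Crabp1 held 320 CPM of Krt16 and 1683 CPM of Krt17.

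Of the follicle classes at 1 day, the upper follicle-like cells carried the clearest Krt6a difference. Krt6a stood at 495 CPM in 1915 control cells and 1001 CPM in 1683 experimental cells, a log2 ratio of 1.02 (0.96 to 1.07), and both levels lay above the T cell-like ones. Of its clusters, the larger, led by 2310046K23Rik and Krt79, held 475 and 675 CPM, a log2 ratio of 0.51, and the one led by Cst6 and Defb6 held 533 and 1698 CPM, a log2 ratio of 1.67. Bulge-like cells went the other way, from 1335 CPM in 1951 control cells to 1082 CPM in 1132 experimental cells, a log2 ratio of -0.30 (-0.36 to -0.24). Bulge-like cells remained the named class with the highest Krt6a in both libraries, by a narrow margin in the experimental one. Cycling-like cells held 281 and 579 CPM, a log2 ratio of 1.05 (0.96 to 1.13), and their experimental level was above that of T cell-like cells but below the 621 CPM of fibroblast-like cells. The unnamed clusters whose best marker score was that of the bulge were higher in the experimental library, unlike the bulge-like class. The one led by Ptn and Fst held 1363 and 1768 CPM, that led by Krt15 and Ptn 1207 and 1444 CPM, and that led by Fos and Cebpd 794 and 1461 CPM.

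In the interfollicular classes the 1-day Krt6a levels did not exceed the background of the experimental library. Basal-like cells held 128 CPM in 4813 control and 140 CPM in 556 experimental cells, a log2 ratio of 0.12 (-0.07 to 0.31) that did not exceed counting error. Spinous-like cells held 139 and 215 CPM, and granular-like cells 54.0 and 251 CPM. All 3 experimental levels were below the 440 CPM of T cell-like cells. Trp63 in the basal-like cells stood at 593 CPM in control and 339 CPM in experimental cells, so those that kept the basal-like name also kept more Trp63 than the experimental keratinocytes as a whole.

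Among the keratinocyte and Krt8-led clusters of the 1-day experimental library, Krt16 was above the T cell-like level only in those nearly absent from the control. In spinous-like cells it stood at 1153 CPM in 5052 control and 1085 CPM in 948 experimental cells, a log2 ratio of -0.09 (-0.13 to -0.05). Its clusters went opposite ways and were mixed differently in the libraries, with a log2 ratio of -0.43 in the one led by Mt4 and Krt1 (3709 control and 348 experimental cells) and 0.75 in the one led by Gm94 and Krt77 (1343 and 600 cells). Basal-like cells held 660 and 1007 CPM, upper follicle-like cells 895 and 1149 CPM, and bulge-like cells 264 and 553 CPM. Each of these 4 experimental levels was below the T cell-like 1662 CPM, as were those of granular-like cells at 1053 CPM, sebaceous-like cells at 1281 CPM and cycling-like cells at 952 CPM. The higher values in these classes as a whole are therefore not read as expression. The granular-like level mixes unlike clusters. The one led by Lce1m and Lor held 879 CPM in the experimental library. The one led by Lce1b and Lce1a2, with 5 control and 199 experimental cells, lay above the T cell-like level but below the fibroblast-like one.

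Krt17 ratios differed in sign between classes at 1 day, but no named class with a higher ratio exceeded background in the experimental library. In upper follicle-like cells it stood at 10600 CPM in control and 9002 CPM in experimental cells, a log2 ratio of -0.24 (-0.25 to -0.22). Granular-like cells held 4081 CPM in 176 control and 1576 CPM in 711 experimental cells, a log2 ratio of -1.37 (-1.42 to -1.32). That experimental level was close to the T cell-like 1502 CPM, and in the cluster led by Lce1m and Lor it was 1498 CPM. The class also held a cluster led by Lce1b and Lce1a2 with 5 control and 199 experimental cells. In bulge-like cells the levels of 1036 and 1048 CPM differed by a log2 ratio of 0.02 (-0.05 to 0.08), but the experimental level was below the T cell-like 1502 CPM and is not read as expression. Cycling-like cells held 790 and 1511 CPM, a log2 ratio of 0.94, of which the control level was below and the experimental one within the T cell-like range. The log2 ratios of 1.30 in spinous-like and 2.79 in sebaceous-like cells came from experimental levels of 590 and 1155 CPM, below the T cell-like one. In the upper follicle-like class Krt17 was thus lower in the experimental library while Krt6a was higher.

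**Figure D2:**
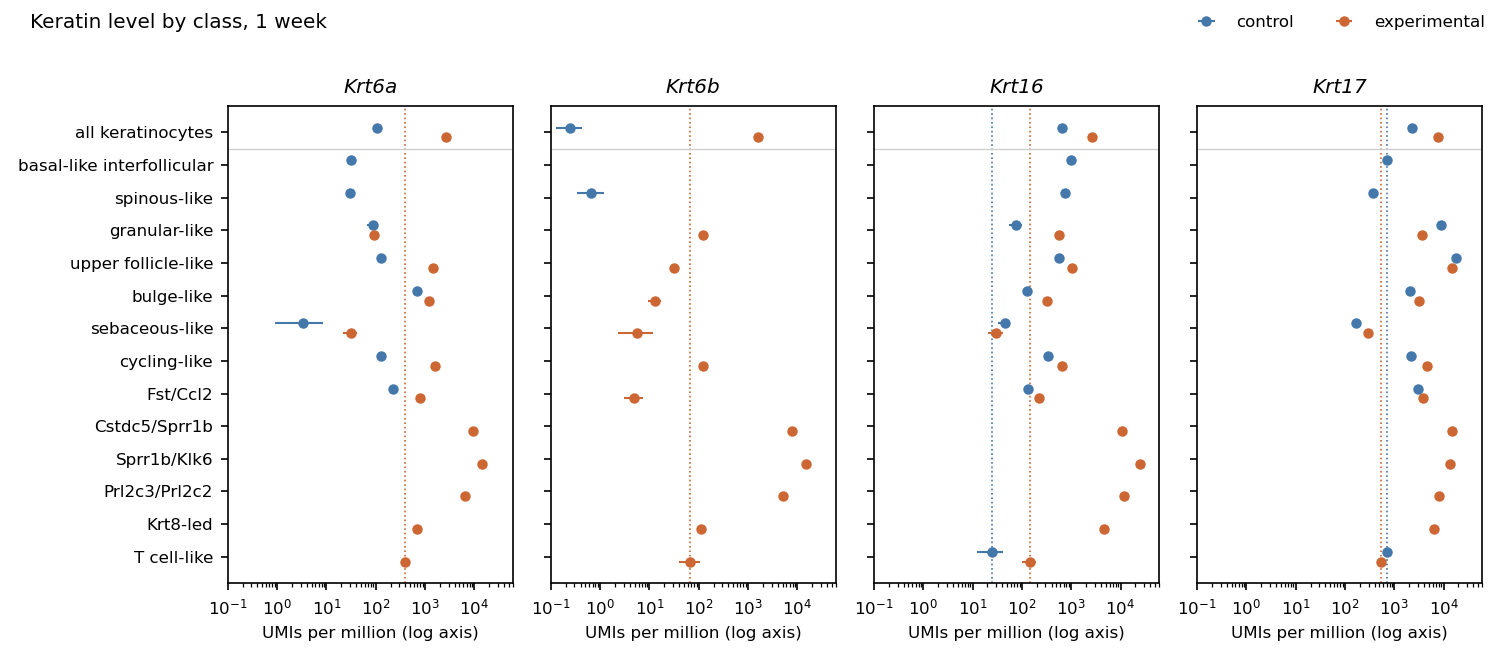
Level of each keratin at 1 week by class of cells (CPM, log axis), drawn as in the plot for 1 day; the spinous-like point includes the Vim/Crabp1-led cluster. Krt6a is higher in experimental upper follicle-like cells (1461 against 128 CPM) and cycling-like cells (1571 against 126 CPM), while Krt17 in upper follicle-like cells is 15054 against 17549 CPM.

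At 1 week the follicle classes again allowed the comparison, since basal-like cells numbered 2080 in control and 17 in experimental, and spinous-like cells 1265 and 6. In upper follicle-like cells Krt6a stood at 128 CPM in 499 control and 1461 CPM in 532 experimental cells, a log2 ratio of 3.52 (3.37 to 3.66). In bulge-like cells it stood at 698 CPM in 791 control and 1208 CPM in 745 experimental cells, a log2 ratio of 0.79 (0.72 to 0.87). Cycling-like cells held 126 CPM in 271 control and 1571 CPM in 295 experimental cells, a log2 ratio of 3.64 (3.50 to 3.78). All 3 experimental levels were above the T cell-like 396 CPM. Sebaceous-like cells, with 30.9 CPM in the experimental library, were below it.

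Krt6b was listed at 0 in the control cells of these classes. Against a floor of 3 UMIs per class it was at least 132-fold higher in experimental cycling-like cells, at 119 CPM, beside 67.4 CPM in T cell-like cells. Of its 703 UMIs there, 99.0% lay in the 10% of cells richest in it, and 87.5% of the 295 cells had none. It was at least 34.9-fold higher in upper follicle-like cells at 31.1 CPM and at least 13.5-fold higher in bulge-like cells at 12.8 CPM, and both levels were below that of T cell-like cells, which a single cell sets. As a sum, Krt6a and Krt6b stood at 128 and 1492 CPM in upper follicle-like cells and at 698 and 1221 CPM in bulge-like cells. In cycling-like cells the sum stood at 126 and 1690 CPM. The sum does not change when reads are exchanged between the copies. It does not cover reads that were dropped or assigned to other genes with shared windows.

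Among the type I members at 1 week, Krt16 stood at 557 and 1016 CPM in upper follicle-like cells, a log2 ratio of 0.87 (0.79 to 0.94), and at 127 and 325 CPM in bulge-like cells, a log2 ratio of 1.35 (1.19 to 1.52). Both experimental levels were above the T cell-like 143 CPM, but the bulge-like one was near that of Langerhans cell or macrophage-like cells given above. The 40 experimental smooth muscle or pericyte-like cells, with a median of 2933.5 UMIs, held 421 UMIs of the 4 members, 28.7% of them Krt16. In bulge-like cells few cells carried Krt16, since 95.95% of control and 80.5% of experimental cells had none. Krt17 was lower in experimental upper follicle-like cells, at 15054 CPM against 17549 CPM, a log2 ratio of -0.22 (-0.24 to -0.21). It was higher in bulge-like cells, at 3123 CPM against 2090 CPM, and in cycling-like cells, at 4508 CPM against 2128 CPM, log2 ratios of 0.58 (0.54 to 0.62) and 1.08 (1.05 to 1.12). The 31 experimental melanocyte-like cells, with a median of 2063 UMIs, held 491 UMIs of the 4 members, 86.8% of them Krt17. A bulge-like, cycling-like or granular-like level of Krt16 or Krt17 above the T cell-like one is therefore not taken as above every non-keratinocyte class. The same holds for the upper follicle-like level of Krt16. Granular-like cells held 8766 CPM of Krt17 in only 31 control cells and 3576 CPM in 146 experimental cells.

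**Figure D3:**
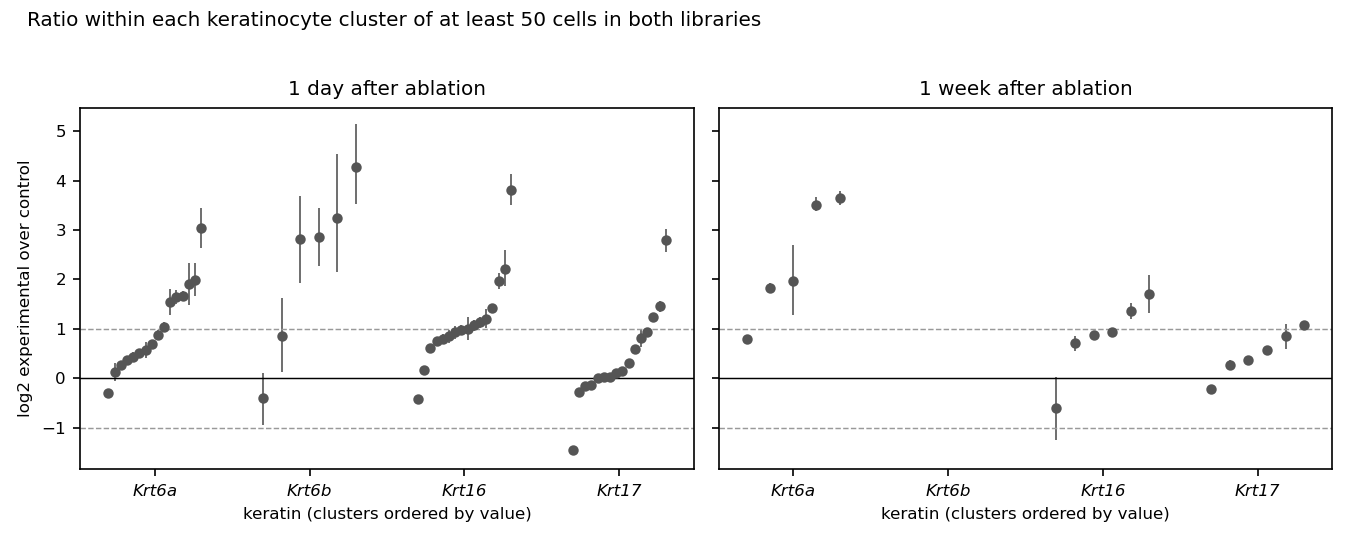
Log2 ratio of experimental over control for each keratin in keratinocyte clusters with at least 50 cells in both libraries, with exact conditional binomial intervals; clusters with under 50 UMIs of the gene in all or at most 3 in control are left out, and dashed lines mark 2-fold. At 1 day Krt6a is higher in 15 of 16 clusters while Krt17 is higher in 11 and lower in 5.

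Cluster by cluster, the direction was more even for Krt6a than for Krt17 at 1 day. There Krt6a was higher in the experimental library in 15 of 16 clusters with at least 50 cells on both sides, with log2 ratios from -0.30 to 3.03 and a median of 0.79. Of the higher clusters, those of the upper follicle-like and cycling-like classes and the unnamed ones led by Ccl2 and Tm4sf1, by Fos and Cebpd, by Krt15 and Ptn and by Ptn and Fst had experimental levels above the T cell-like 440 CPM beyond counting error. The others did not, so the count and the median include clusters at background. Krt16 was also higher in 15 of 16, from -0.43 to 3.81 with a median of 0.99, but its experimental level was at or under the T cell-like one in each of them. Krt17 was higher in 11 and lower in 5, from -1.45 to 2.79 with a median of 0.13, and its interval lay above 0 in 9 and below 0 in 4. Of the 11, only the unnamed clusters led by Ccl2 and Tm4sf1, by Fos and Cebpd and by Krt15 and Ptn had experimental levels above the T cell-like 1502 CPM beyond counting error. In the cluster led by Fos and Cebpd the ratio of 0.015 (-0.03 to 0.06) did not itself exceed counting error. Krt6b had at least 50 UMIs in 9 of these clusters and was higher in 8, but no experimental level among them exceeded the T cell-like 54.3 CPM beyond counting error, the sebaceous-like one at 68.3 CPM included. At 1 week Krt6a was higher in 5 of the 5 clusters that had enough UMIs, with a median of 1.98. Krt16 was higher in 5 of 6 with a median of 0.90, and Krt17 in 5 of 6 with a median of 0.48. The sebaceous-like levels, and Krt6a in the cluster led by Abi3bp and Lgr5, were below the experimental T cell-like ones. Clusters of a library are not replicates.

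**Figure D4:**
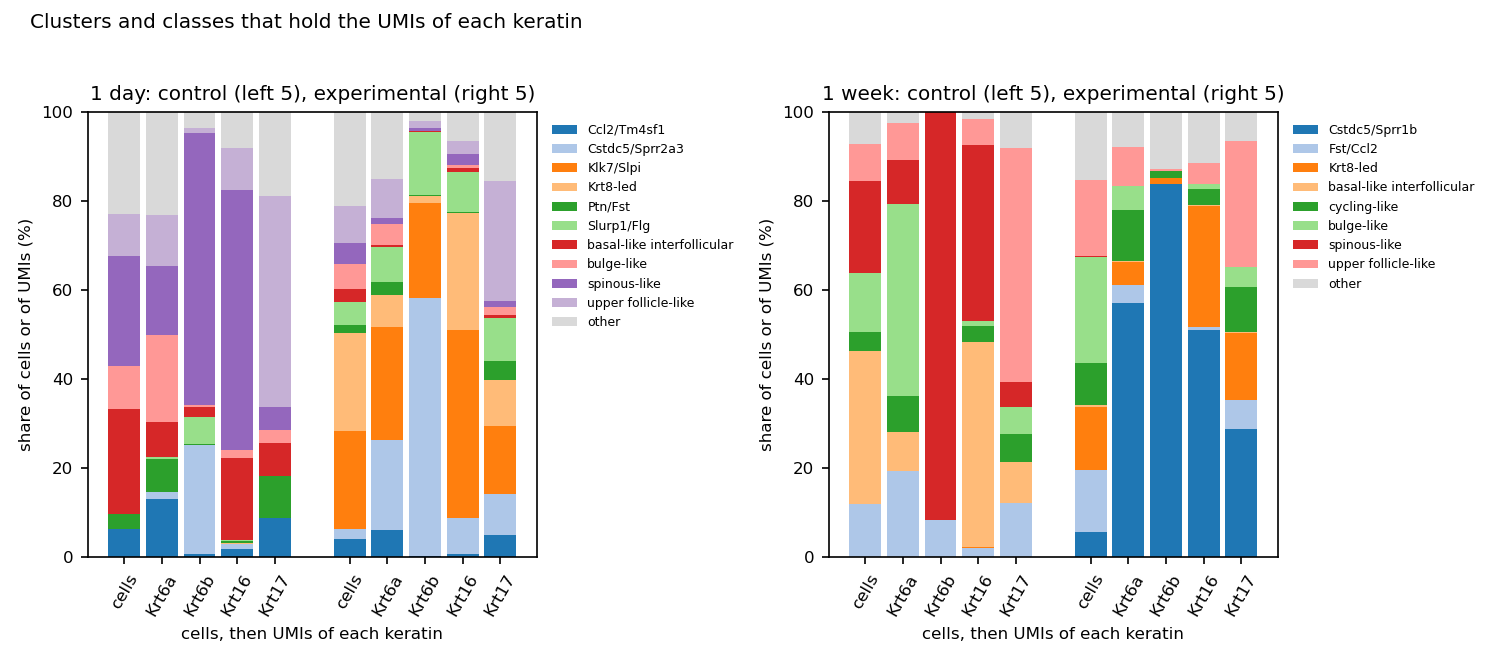
Percent of each keratin's UMIs that came from each class or cluster, over keratinocytes and Krt8-led cells, for every library, beside the percent of cells; each bar is stacked to 100. In the 1-week experimental library the Cstdc5/Sprr1b-led cluster, 5.57% of the cells, holds 83.8% of the Krt6b UMIs.

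Many of the experimental UMIs came from a few clusters that the control libraries nearly lacked. At 1 day a cluster led by Cstdc5 and Sprr2a3, which also carried Stfa3, S100a8 and S100a9 among its leading genes, held 454 experimental and 4 control cells. It made up 2.26% of experimental keratinocytes and Krt8-led cells and held 58.0% of their Krt6b UMIs and 20.2% of their Krt6a UMIs. Its levels were 5014 CPM of Krt6a, 3644 CPM of Krt6b, 6426 CPM of Krt16 and 6509 CPM of Krt17. The 4 control cells of that cluster held 24.6% of all Krt6b UMIs of the control, whose other main source was the spinous-like class with 61.3%.

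A larger 1-day cluster was led by Klk7, a kallikrein protease of the cornified layer, and Slpi, a protease inhibitor, and held 4443 experimental and 6 control cells. It carried 42.2% of the experimental Krt16 UMIs in 22.1% of the cells, at 4217 CPM, and Krt6a at 797 CPM. The Krt8-led cells carried a further 26.4% of the Krt16 UMIs at 3583 CPM. In them Krt6a at 312 CPM, Krt6b at 17.8 CPM and Krt17 at 1261 CPM were below the T cell-like levels, so of the 4 only Krt16 passed background there. A cluster led by Slurp1 and Flg, with 1048 experimental and 6 control cells, held 840 CPM of Krt6a, 380 CPM of Krt6b, 3044 CPM of Krt16 and 2891 CPM of Krt17.

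At 1 week a cluster led by Cstdc5 and Sprr1b, with 174 experimental and 0 control cells, held many of the UMIs. It was 5.57% of experimental keratinocytes and Krt8-led cells and held 57.1% of their Krt6a, 83.8% of their Krt6b and 50.9% of their Krt16 UMIs. For Krt17 it held 28.8%, about as much as upper follicle-like cells with 28.4%. These shares leave out the clusters of that library set apart for their few UMIs per cell, whose 11428 cells held 49468 UMIs of Krt6a, against 46688 in the cluster led by Cstdc5 and Sprr1b. The levels in the latter were 9213 CPM of Krt6a, 7879 CPM of Krt6b, 10706 CPM of Krt16 and 14846 CPM of Krt17. Its cells had a median of 27048 UMIs, against 7556 for the experimental keratinocytes deep enough to be thinned, and whether they include doublets was not tested further. The Krt8-led cells held 4678 CPM of Krt16 and 6373 CPM of Krt17, with 684 CPM of Krt6a, all above the T cell-like levels. Of their Krt6a UMIs, 94.3% lay in the 10% of cells richest in it, and 68.6% of the cells had none. In the 1-week control, by contrast, bulge-like cells held 43.3% of the Krt6a UMIs, basal-like cells 46.0% of the Krt16 UMIs and upper follicle-like cells 52.8% of the Krt17 UMIs.

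A pair of smaller clusters of the 1-week experimental library had high CPM levels of all 4 members. One, led by Sprr1b and Klk6, held 14349 CPM of Krt6a, 14904 CPM of Krt6b, 25045 CPM of Krt16 and 13222 CPM of Krt17 in 77 cells. The other, led by Prl2c3 and Prl2c2, held 6419 CPM of Krt6a, 5101 CPM of Krt6b, 11582 CPM of Krt16 and 7934 CPM of Krt17 in 65 cells. Neither had a control cell.

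**Figure D5:**
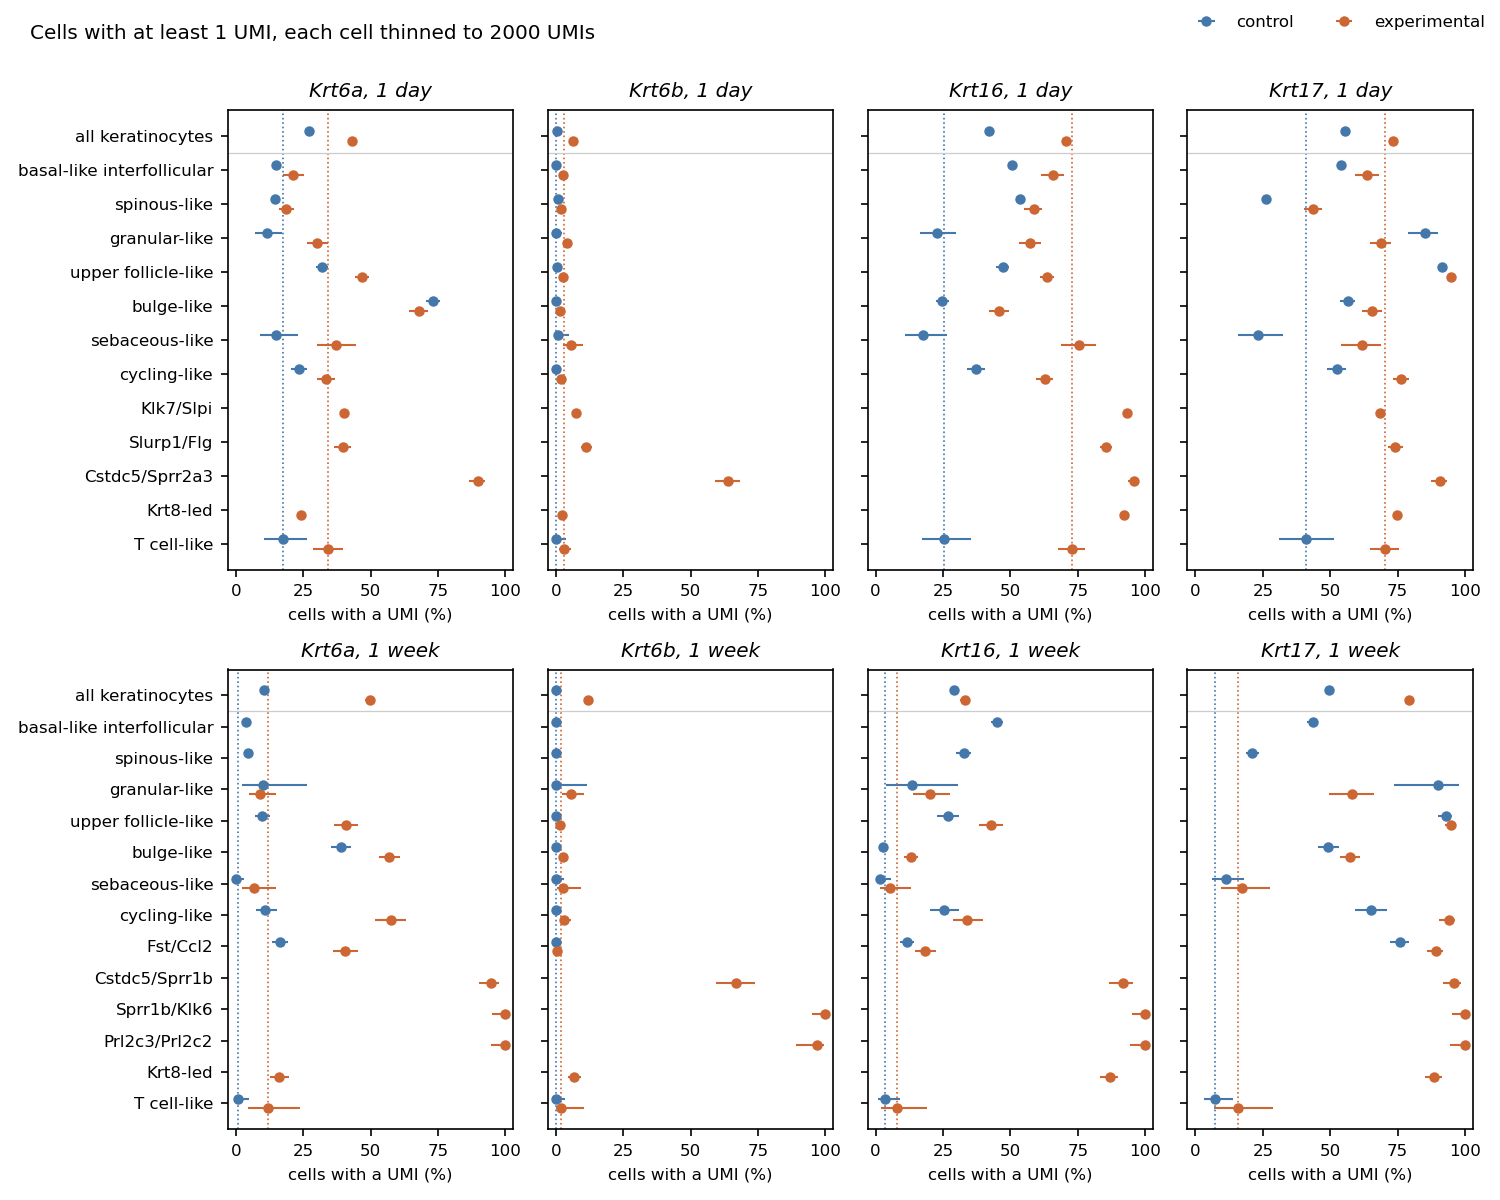
Share of cells with at least 1 UMI of each keratin after thinning every cell to 2000 UMIs, by class, control and experimental libraries at both time points, as points with exact binomial intervals; dotted lines mark the T cell-like shares, and groups under 20 cells are left out. Krt6a is found in 73.1% of control bulge-like cells at 1 day, and its share in all keratinocytes is 27.1% in control and 43.1% in experimental cells.

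To set shares of positive cells side by side, the UMIs of every cell were first drawn down to 2000. At 1 day Krt6a was found in 27.1% of 17997 control and 43.1% of 13272 experimental keratinocytes (40.5% and 54.7% without thinning). The T cell-like shares were 17.3% and 34.1%. Median depth before thinning was 4657 and 4065 UMIs in keratinocytes and 3157 and 3893 UMIs in the 98 and 299 T cell-like cells. Krt6b was found in 0.422% and 6.54% of keratinocytes, against 0 of 98 control and 3.01% of experimental T cell-like cells. For the count of 0 the limit was set at 3 cells, or 3.06%, and is not an exact binomial limit. Krt16 was found in 42.0% and 70.6% of keratinocytes, and the experimental share did not exceed the 72.9% of T cell-like cells. Krt17 was found in 55.3% and 73.5%, beside 40.8% and 70.2% of T cell-like cells.

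The 1-week cells were drawn down in the same way, and their shares are not compared with those of 1 day. Krt6a was found in 10.4% of 5574 control and 49.8% of 2550 experimental keratinocytes, and in 0.909% and 11.8% of T cell-like cells. Krt6b was found in 0.0179% and 11.9% of keratinocytes. Krt16 was found in 29.0% and 33.2% of the pooled keratinocytes, while its level was 4.21-fold higher in the experimental library. That small difference did not hold within follicle classes. Among upper follicle-like cells the Krt16 shares were 26.0% and 37.2% without Krt6a or Krt6b, and 33.3% and 50.7% with either. Among bulge-like cells they were 2.26% and 8.63% without, and 3.54% and 16.3% with either. The low-UMI clusters, left out here, had 57.8% and 68.2% without, and 64.5% and 93.9% with either. Krt17 was found in 49.6% and 79.3%, beside 7.27% and 15.7% of T cell-like cells. Median depth before thinning was 7103.5 and 7556 UMIs in keratinocytes, and 2515.5 and 2439 in the 110 and 51 T cell-like cells. Within classes, Krt6a was found in 9.76% of control and 40.8% of experimental upper follicle-like cells and in 39.0% and 56.9% of bulge-like cells. In the cluster led by Cstdc5 and Sprr1b, 94.8% of cells held Krt6a and 66.9% held Krt6b.

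The UMIs were unevenly spread over cells. In the 1-week experimental keratinocytes the 10% of cells richest in each gene held 87.7% of the Krt16 UMIs, against 73.5% in the control, whereas for Krt17 they held 57.5% and 74.9%. Krt6b was missing from 84.1% of these experimental cells. Co-detection with the type I partners was counted over all keratinocytes of a library. At 1 week Krt16 was found in 45.3% of experimental keratinocytes with Krt6a or Krt6b and in 20.8% of those without, and in the control the shares were 22.8% and 29.7%. That control order did not hold within its basal-like cells, where the shares were 59.2% and 44.5%. In upper follicle-like control cells they were 33.3% and 26.0%, and in cycling-like ones 17.2% and 26.3%, with overlapping intervals in both classes. In percentage points the difference was smaller within the named experimental classes given here. The shares were 50.7% and 37.2% in upper follicle-like, 16.3% and 8.63% in bulge-like and 36.5% and 30.6% in cycling-like cells. The intervals of the cycling-like shares overlapped. Over the pooled unnamed experimental clusters the difference was larger, at 69.2% and 15.7%. In Krt8-led cells Krt16 was found in 68 of 80 cells with Krt6a or Krt6b and in 87.2% of those without. Krt17 was found in 85.6% and 72.8% of the same experimental cells and in 61.1% and 48.2% of control cells. With Krt8-led cells counted, the 1-week experimental shares were 47.6% and 35.3% for Krt16 and 86.3% and 75.8% for Krt17. At 1 day the experimental shares were 72.9% and 68.7% for Krt16 and 81.2% and 67.3% for Krt17, and the control shares were 40.2% and 42.7% for Krt16 and 65.0% and 51.7% for Krt17. These are descriptions over cells of 1 library.

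Other keratins were read from a list of 43, of which 41 were in the matrices. At 1 day 22 had enough UMIs, and 6 were at least 2-fold higher and 4 at least 2-fold lower in experimental keratinocytes, with a median log2 ratio of 0.24 against -0.02 over all genes. Of all genes tested, 5.14% were higher and 2.44% lower by that measure at 1 day, and 9.89% and 4.96% at 1 week, and the counts of this and the next lists are to be read against those shares. Krt8 stood at 0.885 and 247 CPM and its partner Krt18 at 0.857 and 19.5 CPM, while Krt5, the basal type II keratin, stood at 2089 and 848 CPM. At 1 week 10 of 23 were at least 2-fold higher and 6 lower, with a median of 0.40 against 0.12 over all genes. Krt8 stood there at 1.18 and 191 CPM, and Krt2, a keratin of the upper interfollicular layers, at 12.0 and 0.311 CPM. The Krt8 and Krt18 levels leave out the Krt8-led clusters, which were set apart by Krt8 itself.

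Defence and alarmin genes had the largest median of the 5 lists. At 1 day 15 of 20 were at least 2-fold higher, against 5.14% of all genes, and 1 lower, with a median log2 ratio of 2.35, and at 1 week 17 of 18 were higher, against 9.89%, and 1 lower, with a median of 5.11. Slpi stood at 4.27 and 385 CPM at 1 day. The cytokine Il1f6 stood at 0.163 and 30.5 CPM at 1 week, and Serpinb2, a serine protease inhibitor, at 6991 and 1584 CPM. Of the keratinocyte cytokines and growth factors, 13 of 30 were at least 2-fold higher and 0 lower at 1 day, and 11 of 30 higher and 2 lower at 1 week. Tslp, an epithelial alarmin cytokine, stood at 16.6 and 153 CPM at 1 day, and Il24 at 1.18 and 31.8 CPM at 1 week. Il1b was lower in the keratinocyte class at 1 week, at 3.18 and 0.623 CPM. A mixed-marker cluster kept apart from that class, with 0 control and 97 experimental cells, had Il1b among its leading genes. Over all cells of 1 week, 0 of the 31 tested genes of that list were at least 2-fold lower.

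Migration and matrix genes, which accompany re-epithelialisation, gave counts of higher genes near the share of all genes and counts of lower genes above it. At 1 day 2 of 24 were at least 2-fold higher, against 5.14% of all genes, and 4 lower, against 2.44%, with a median of -0.52. At 1 week 2 of 22 were higher, against 9.89%, and 4 lower, against 4.96%, with a median of -0.17. Mmp3, a matrix metalloproteinase, stood at 51.6 and 12.2 CPM at 1 day and at 14.5 and 0.761 CPM at 1 week. Plau, the urokinase plasminogen activator, stood at 4.06 and 14.0 CPM at 1 day, and the connexin gene Gjb2 at 39.1 and 258 CPM at 1 week. Of 41 transcription factor genes, 0 were at least 2-fold higher and 1, Trp63, lower at 1 day. At 1 week 3 were higher and 2 lower, near the 9.89% and 4.96% of all genes. Cebpd stood at 79.8 and 289 CPM and Sox9, a follicle stem cell factor, at 250 and 580 CPM, while Fosl1 stood at 777 and 291 CPM.

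Likeness was taken over 29 sums in 1 library each, centred within each time point. Each sum was a named keratinocyte class or all unnamed clusters pooled, and Krt8-led cells were left out. The genes whose log2 level most resembled the mean of the 4 members were Gsdmc, Elf3, Stfa3, Tchh and S100a9. Their Pearson r ran from 0.822 to 0.858 among 8926 genes, as a description with no p, since the sums share libraries. Among the members, Krt6b and Krt16 were the most alike pair (r = 0.687), and Krt6b and Krt17 the least (r = 0.355). Krt6a and Krt6b, with nearly the same coding sequence, reached r = 0.598.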

How the data were processed

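The deposited files were UMI count matrices of 4 libraries, 1 per group, made by the authors with Cell Ranger 5.0.1 and mm10, per the submitters' processing notes, which also name Seurat. A barcode was dropped under 500 UMIs, under 300 genes or above a mitochondrial share of 15%. Scrublet scores were used to remove the top-scoring 0.8% of barcodes per 1000 barcodes (14.7% to 26.8% of a library), because its own threshold marked 0.00314% to 0.0121% in 3 libraries and 19.4% in the 1-day control. Each time point was clustered (scanpy 1.11.5, leidenalg 0.10.2, 2000 variable genes without the 4 members, 30 principal components, 15 neighbours, resolution 1). Genes of every list except that of other keratins were also left out of the variable genes. Clusters were named from marker lists. The score limits for naming were set after the data were seen.

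UMI counts were summed per class and library. Levels carry exact Poisson intervals, shares exact Clopper-Pearson intervals and ratios exact conditional binomial intervals, all at 95% (scipy 1.17.1). They cover counting error only. With 1 library per group no test was made. "At least 2-fold" refers to genes with at least 50 UMIs over both libraries. On counts simulated for each time point, 150 of 150 genes given a known change past 2-fold were called, as were 6 of 14434 unchanged genes for 1 day and 9 of 14425 for 1 week. The simulation held counting error alone, at the depth of whole libraries, and its changed genes were well-counted ones. It checks the calling step and gives no error rate for the calls in keratinocytes. The members were named throughout, and from each list the 3 highest and 2 lowest log2 ratios could be named. The members and the gene lists were chosen with earlier results of these data known. Of the 32285 gene IDs, 32158 were found in GENCODE M21 (GRCm38), from which transcript sequences were read. Promoter and protein sequences of the members were not used here.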

Additional observations from a re-analysis of the deposited data

Results flagged for a closer look

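Each of the first 3 results below sets a pair of cell classes whose differences between genotypes pointed opposite ways within 1 time point. The difference between the classes was not tested, since each group was 1 library. Krt6a at 1 day had a log2 ratio of -0.30 in bulge-like cells and 1.05 in cycling-like cells. Of the 3 named classes above background, 1 was lower and 2 were higher. The unnamed clusters with the bulge as best marker score had Krt6a log2 ratios of 0.26, 0.37 and 0.88, unlike the bulge-like class. Krt16 at 1 day had a log2 ratio of -0.088 in spinous-like cells and 1.41 in cycling-like cells, but the experimental levels of both were below those of T cell-like cells. The spinous-like value mixes a cluster at -0.43 with one at 0.75, in proportions that differed between the libraries. Krt17 at 1 week had a log2 ratio of -0.22 in upper follicle-like cells and 1.08 in cycling-like cells. The cycling-like level of Krt17 is not taken as above every non-keratinocyte class.

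The 1-day libraries also carry counts of 4 antibody hashtags, whose meaning the labels do not give. In the control, 76.7% of the Krt6b UMIs of keratinocytes lay in cells of hashtag 1, in 73 cells with a UMI. In the experimental library the largest share among tagged cells was 33.3%, in cells of hashtag 2. Tag numbers were not matched between the libraries.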

How the results depend on the processing

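The settings were run for the keratinocyte-wide log2 ratios, the share with Krt6a or Krt6b and the count of genes past 2-fold, and none of these reversed. Ratios within single classes or clusters were not rerun, so how far they depend on clustering and naming is not known. No paired analysis was possible because each group was 1 library, and no library could be left out. The settings that used clusters of both libraries, counted low-UMI clusters or subtracted the T cell-like level were chosen after seeing the data. For the 4 keratins summed, the 1-day log2 ratio of 1.11 became 1.05 with Krt8-led and mixed clusters counted, 1.06 over all cells, 1.098 at resolution 0.5, 1.09 at resolution 2 and 1.09 with doublets kept. It was 1.20 for barcodes of at least 3000 UMIs, 1.00 on totals without mitochondrial, ribosomal protein and keratin genes, 1.12 centred on all genes, 0.89 as a mean per cell, 0.67 over clusters of both libraries and 0.69 less the T cell-like level. The 1-week value of 2.28 became, in the same order, 2.26, 2.30 and 2.23 (resolution 0.5), 2.23 with doublets kept, 2.29, 2.20, 2.16, 1.86, 0.48 and 2.56, and 2.31 with low-UMI clusters. The share of keratinocytes with Krt6a or Krt6b differed by 16.9 percentage points at 1 day, and by 14.7 with Krt8-led and mixed clusters, 14.8 over all cells, 20.6 with doublets kept, 19.7 for at least 3000 UMIs, 12.6 thinned to 1000 UMIs, 21.01 to 3000 UMIs, 15.4 unthinned and 12.8 for at least 2 UMIs. At 1 week it differed by 40.3 points, and by 47.7 over all cells, 35.6 at resolution 0.5, 35.6 with doublets kept, 27.4 over clusters of both libraries, 52.4 with low-UMI clusters, 34.3 thinned to 1000 UMIs, 43.2 to 3000 UMIs, 45.9 unthinned and 33.4 for at least 2 UMIs. Genes past 2-fold numbered 1005 at 1 day and 1815 with a minimum of 10 UMIs, and 1908 and 3053 at 1 week. The cause of these shifts was not tested.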

Other observations

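The hashtags of the 1-day libraries gave a view of the members within each library. Cells that no hashtag marked clearly were 39.4% of control and 61.4% of experimental keratinocytes, and 3 hashtags held cells in each library. Krt6a ran from 159 to 378 CPM over the 3 control hashtags and from 503 to 1293 CPM over the experimental ones. Cells without a clear hashtag held 479 CPM of Krt6a in the control and 882 CPM in the experimental library, and they included 93.8% of the control bulge-like cells, the named class highest in Krt6a, so the hashtag ranges nearly leave that class out. Krt16 lay between 602 and 894 CPM in the control hashtags and between 1749 and 3038 CPM in the others. Krt17 lay between 1631 and 1740 CPM in control cells and between 1857 and 2920 CPM in experimental ones. The hashtag ranges of these 3 genes did not overlap between the libraries, but the share of all genes for which this holds was not counted. The lowest experimental values were those of hashtag 3. T cell-like cells of that hashtag held 544 CPM of Krt6a and 2056 CPM of Krt16, above its keratinocytes, and 1668 CPM of Krt17, below them. The lowest experimental Krt6a and Krt16 values are therefore background and not read as expression. Krt6b ran from 0.836 to 38.6 CPM in control and from 37.2 to 447 CPM in experimental cells, and its ranges overlapped. What a hashtag stands for is not given, so these values are no replicates.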
